A study of Mus musculus with 16 samples.

Results

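Genes of hyaluronan synthesis, breakdown and binding were followed across 16 RNA sequencing libraries of mouse articular chondrocytes, which build and maintain the cartilage of joints, in primary culture. The set holds 9 of the 55450 genes listed in each library, found there by their symbols: the synthases Has1, Has2 and Has3, the hyaluronidases Hyal1, Hyal2 and Hyal3, the hyaluronan-depolymerising protein gene Cemip, the receptor gene Cd44, and Tnfaip6, which encodes the binding protein TSG-6. All cells were kept at 3% oxygen in medium with 10% serum. The vehicle group received saline in the volume of the cytokine for 24 h. The bleomycin group was first exposed to hyaluronidase type I-S at 4 U/mL for 4 h without serum, then to bleomycin, a DNA-breaking drug, at 50 µg/mL for 24 h, and then kept in fresh medium for 5 days. The doxorubicin group received this topoisomerase poison at 50 nM for 5 days, renewed every 48 h. The IL-1β group received the inflammatory cytokine interleukin-1 beta at 1 ng/mL for 24 h. Each group had 4 libraries. The labels give no animal strain, age or genotype, do not say whether replicates came from separate animals or cultures, and do not say when the vehicle cells were harvested or whether they met hyaluronidase. P-values therefore measure the spread between these libraries, which may be technical. For the bleomycin group, the drug and the enzyme that degrades the very polymer under study cannot be told apart. The treatment schedule also differed between the drug groups and IL-1β, and time in culture may have differed too.

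Hyaluronan is a long unsulfated sugar chain that synthases in the plasma membrane spin out from the cytosolic precursors UDP-glucuronic acid and UDP-N-acetylglucosamine. In cartilage it is the backbone on which aggrecan is assembled, held in place by link protein, and CD44 anchors the aggregate to the chondrocyte. Breakdown starts outside or at the surface of the cell through CEMIP and HYAL2 and ends in the lysosome through HYAL1 and exoglycosidases. TSG-6 binds hyaluronan and transfers the heavy chains of inter-alpha-inhibitor onto it, a modification best known from inflamed joints and the ovulating follicle.

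Values are FPKM, in which the fragments of a gene are divided by its length and by library depth. The gene lengths that the authors used are not given in the sources used here. Comparisons of levels between genes, and the sums and shares below, are therefore approximate. Estimated depth was 15.7 to 21.8 M fragments (M, mega) a library. FPKM summed to between 521294 and 559190 in the IL-1β libraries and to between 405159 and 423830 in the other 12. Genes at or above 1 FPKM in at least 4 libraries, 12976 in all, were tested with limma on log2(FPKM + 1), and a gene was called at an adjusted p (Benjamini-Hochberg over all tested genes) under 0.05. Of the 9 genes, 6 passed the filter, and all 6 were at or above 1 FPKM in all 16 libraries. Has1 and Has3 reached 1 FPKM in 0 libraries and Hyal3 in 1, so these 3 were compared by an exact permutation test. A large part of the transcriptome moved in these cells, so counts of called genes are read against the share of all tested genes called in the same way.

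The sequences upstream of Tnfaip6, Hyal1 and Cemip are shown because Hyal1 and Cemip had the largest increases under doxorubicin among the 6 tested genes and Tnfaip6 was called in opposite directions under drugs and cytokine. They are RefSeq sequences of build GRCm38.p6, 5′ to 3′ on the strand of the gene. Each is the part of the 250 bases before the RefSeq start that lies outside annotated exons of the gene: chr2:52037863-52038008 on the plus strand for Tnfaip6, chr9:107576700-107576926 on the plus strand for Hyal1, and chr7:84086506-84086755 on the minus strand for Cemip. Capitals mark motif matches.
Tnfaip6: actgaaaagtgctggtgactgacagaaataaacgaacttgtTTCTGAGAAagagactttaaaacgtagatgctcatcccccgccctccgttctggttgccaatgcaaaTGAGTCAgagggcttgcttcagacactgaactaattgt
Hyal1: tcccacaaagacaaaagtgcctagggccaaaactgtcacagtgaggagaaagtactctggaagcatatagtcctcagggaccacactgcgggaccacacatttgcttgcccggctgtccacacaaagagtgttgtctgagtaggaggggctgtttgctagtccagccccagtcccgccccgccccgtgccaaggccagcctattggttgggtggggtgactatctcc
Cemip: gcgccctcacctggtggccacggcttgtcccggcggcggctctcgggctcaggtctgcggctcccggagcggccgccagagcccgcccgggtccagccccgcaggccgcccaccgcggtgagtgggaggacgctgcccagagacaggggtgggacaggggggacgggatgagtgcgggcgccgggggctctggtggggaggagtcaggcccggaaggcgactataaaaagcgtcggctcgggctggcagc

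Windows of 250 bases were found for 7 of the 9 genes, and both strands were searched for 6 motifs of factors active in inflammation and stress. The motifs were NF-kB, ISRE, the interferon element, AP-1 as TGANTCA, C/EBP as TTNNGCAA, GAS, the STAT element, as TTCNNNGAA, and the E-box CACGTG. Tnfaip6 held TTCTGAGAA, a GAS match, and TGAGTCA, an AP-1 match, separate from each other. Of 32851 RefSeq windows of the same length, 7.02% held a GAS match and 6.75% an AP-1 match. Hyal2 held 1 NF-kB match, a motif found in 7.25% of windows. The RefSeq starts of Hyal2, Tnfaip6, Hyal1, Has1 and Hyal3 lie inside the annotated gene. For Hyal3 the bases checked after that start were found in no annotated transcript of the gene. The windows of Hyal1, Cemip, Cd44, Has1 and Hyal3 held none of the 6 motifs. C/EBP was found in 9.56%, the E-box in 6.02% and the ISRE in 2.98% of all windows.

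Against vehicle, bleomycin moved all 6 tested genes. Hyal1, Hyal2, Cemip and Cd44 rose and Has2 and Tnfaip6 fell, so 6 of 6 were called where 46.9% of all tested genes were (27.9% higher and 19.0% lower). Doxorubicin moved 5 of 6, with Hyal1, Cemip and Cd44 higher and Has2 and Tnfaip6 lower, where 48.3% of tested genes were called (25.4% higher and 22.8% lower). IL-1β moved 3 of 6, with Cd44 and Tnfaip6 higher and Has2 lower, where 43.0% were called (24.5% higher and 18.4% lower). That last share is close to the background of the comparison. The median log2 difference of the 6 genes was 0.60, 0.60 and 0.33 for bleomycin, doxorubicin and IL-1β, and that of all tested genes 0.06, 0.02 and 0.03. The 3 comparisons share the vehicle libraries. Rescaling the libraries by median-of-ratios moved the higher share of all calls from 59.5% to 47.7% for bleomycin, and quantile normalization moved it from 57.1% to 44.0% for IL-1β, while the median of all genes moved by at most 0.08 on the log2 scale.

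**Figure D1:**
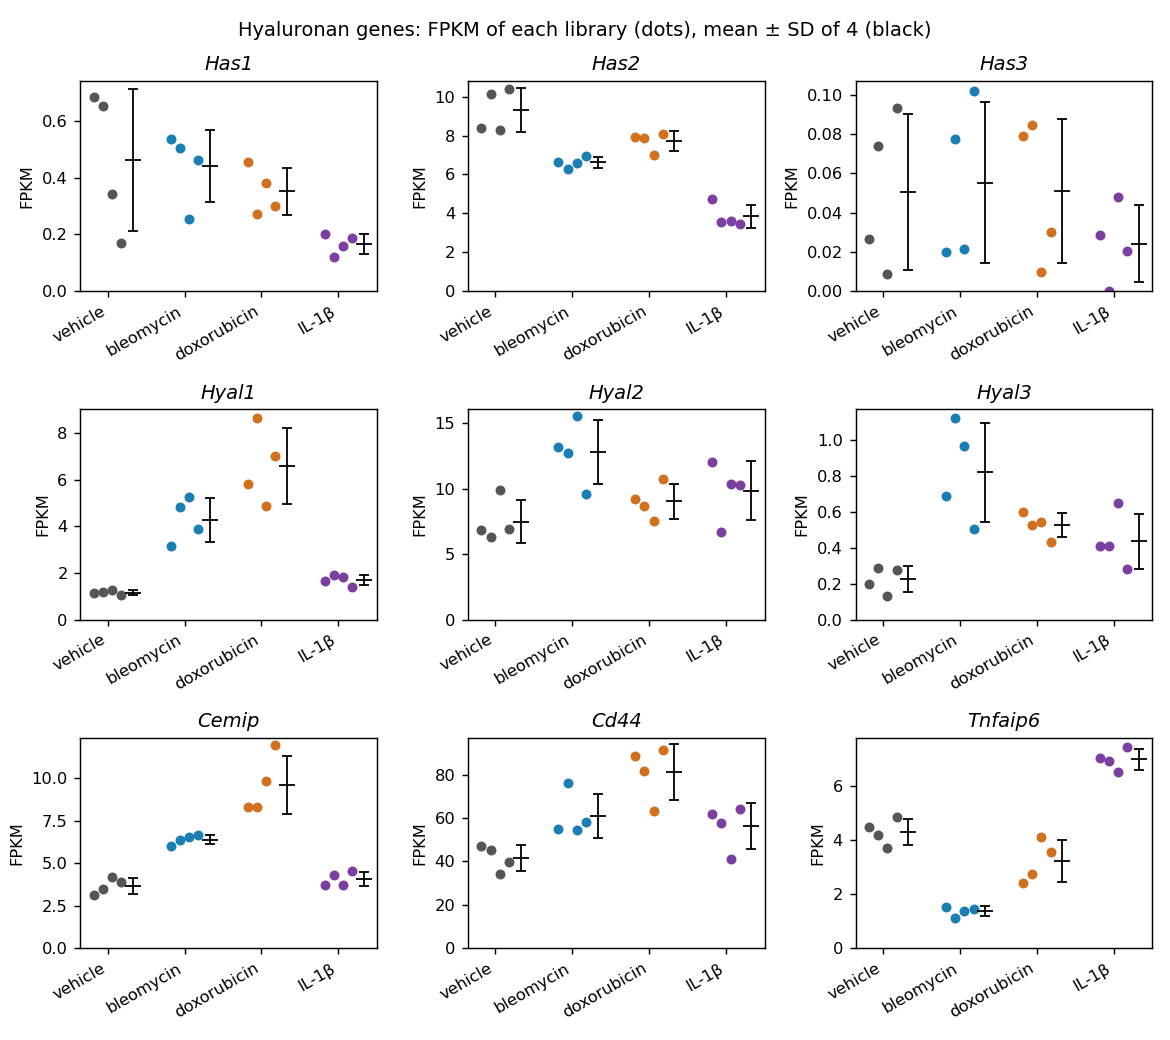
FPKM of the 9 hyaluronan genes (vertical axes, linear, from 0, scaled for each gene) in the 4 libraries of vehicle, bleomycin, doxorubicin and IL-1β (colored dots), with the mean and SD of each group in black. Has2 is lowest under IL-1β, Hyal1 and Cemip are highest under doxorubicin, and Tnfaip6 is lowest under bleomycin and highest under IL-1β.

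Has2, which encodes the main hyaluronan synthase of chondrocytes (ENSMUSG00000022367.7, chromosome 15 from 56665627 to 56694539, minus strand, GRCm38), made up 94.7% of the summed synthase FPKM in vehicle and 93.0% to 95.2% in the treated groups. Its FPKM was 8.41, 10.2, 8.27 and 10.4 in the 4 vehicle libraries. It was 6.65, 6.27, 6.60 and 6.96 under bleomycin, 7.92, 7.87, 6.996 and 8.09 under doxorubicin, and 4.75, 3.57, 3.60 and 3.47 under IL-1β. Every treated library lay below every vehicle library, and the IL-1β libraries lay below all others. The mean was 9.31 ± 1.13 (SD, n = 4) in vehicle, 6.62 ± 0.283 under bleomycin, 7.72 ± 0.491 under doxorubicin and 3.85 ± 0.602 under IL-1β. This is 2.42-fold lower than vehicle under IL-1β, 1.41-fold lower under bleomycin and 1.21-fold lower under doxorubicin. In limma, Has2 fell by 1.09 (SE 0.09, adjusted p = 6.44e-08) on the log2 scale with IL-1β and by 0.43 (SE 0.09, adjusted p = 0.00102) with bleomycin. The doxorubicin difference of -0.24 (SE 0.09, adjusted p = 0.0403 in limma) was the least certain. It ended at an adjusted p of 0.0517 when only vehicle and doxorubicin libraries were fitted, at 0.0751 with no filter on low values, and was lost without vehicle replicate 2 or 4 or without doxorubicin replicate 1, 2 or 3 (adjusted p = 0.0580 to 0.126).

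Has2 under IL-1β lay 0.66 log2 units below bleomycin (adjusted p = 1.54e-05, limma) and 0.85 below doxorubicin (adjusted p = 8.20e-07, limma). Bleomycin and doxorubicin did not differ past the threshold (-0.19, 95% interval -0.39 to -0.00, adjusted p = 0.205, limma). The order of the Has2 means was therefore vehicle, doxorubicin, bleomycin and IL-1β, with the middle pair not separated by the test. Every bleomycin library still lay below every doxorubicin library, though narrowly (highest 6.96 and lowest 6.996 FPKM). The antisense transcript Has2os runs on the opposite strand and shares 182 of the 4237 exon bases of Has2 (4.30%). It stood at 1.80 ± 0.695, 1.52 ± 0.444, 2.11 ± 0.622 and 1.64 ± 0.337 FPKM (SD, n = 4) in vehicle, bleomycin, doxorubicin and IL-1β. None of its 3 differences from vehicle was called (adjusted p = 0.600, 0.489 and 0.848, limma). The libraries were stranded, but the strand setting of the authors' counting is not given in the sources used here.

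Has1 and Has3, the other synthases, were scarce. Has1, on chromosome 17 from 17843323 to 17855205, ranged from 0.169 to 0.686 FPKM in vehicle, 0.255 to 0.538 under bleomycin, 0.272 to 0.456 under doxorubicin and 0.121 to 0.200 under IL-1β. The IL-1β libraries lay below all bleomycin and all doxorubicin libraries (exact permutation test, two-sided, p = 0.0286 for each, the smallest that 4 against 4 libraries can give), but overlapped vehicle, in which 1 library stood at 0.169 (p = 0.0857, exact permutation test). With no filter on low values, limma gave adjusted p = 0.0491 for Has1 under IL-1β against vehicle, 0.0463 against bleomycin and 0.170 against doxorubicin, so for vehicle and doxorubicin the tests fell on different sides of 0.05. Has3 stayed between 0 and 0.102 FPKM, an estimated 0 to 13.2 fragments a library, and was listed at 0 in 1 IL-1β library. At that depth no difference in Has3 was detectable (18 exact tests over Has1, Has3 and Hyal3; the smallest p for Has3 was 0.257).

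The supply of sugar nucleotides was described from a list of 10 genes for enzymes and transporters, all 10 of which were tested. The transporters, Slc35d1 among them, are counted although hyaluronan is built from cytosolic precursors. Of the 10 genes, 7 were lower and 1 higher under bleomycin, 5 lower and 0 higher under doxorubicin, and 6 lower and 2 higher under IL-1β. Their median log2 differences were -0.26, -0.27 and -0.41, against medians of 0.06, 0.02 and 0.03 over all tested genes, of which 19.0%, 22.8% and 18.4% were called lower. Gfpt2, one of a pair of genes for the rate-limiting enzyme of the hexosamine pathway, fell from 29.2 ± 2.36 FPKM in vehicle to 16.3 ± 0.932 under bleomycin, 17.7 ± 1.57 under doxorubicin and 18.2 ± 1.26 under IL-1β. All 12 treated libraries, from 15.4 to 19.6, lay below the 4 vehicle libraries, from 27.2 to 32.4. Gnpnat1, which acetylates glucosamine 6-phosphate, fell by 0.62, 0.89 and 0.56 on the log2 scale. Slc35d1, a nucleotide sugar transporter of the endoplasmic reticulum, fell by 0.69, 0.49 and 0.94, and Gfpt1 by 0.29, 0.47 and 0.63. Pgm3, a mutase gene of the same pathway, fell by 0.60 with IL-1β and by 0.24 with bleomycin. The genes that were higher were Gpi1 under bleomycin (0.37) and under IL-1β (0.41), and Ugp2 under IL-1β (0.27). Under bleomycin Ugp2 was called lower (-0.21, adjusted p = 0.0292, limma). Gpi1 is the glycolytic isomerase that provides fructose 6-phosphate, and Ugp2 makes UDP-glucose. Ugdh, which makes UDP-glucuronic acid, was called only under IL-1β (-0.25, adjusted p = 0.0273, limma), while its bleomycin and doxorubicin differences were -0.05 and 0.01. The difference between those responses was tested for IL-1β against doxorubicin, where Ugdh was lower under IL-1β (adjusted p = 0.0162, limma), and for IL-1β against bleomycin, where it was not called (adjusted p = 0.0596, limma).

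Hyal1, which encodes a lysosomal hyaluronidase (ENSMUSG00000010051.15, chromosome 9 from 107576927 to 107581710, plus strand), had the largest increase of the 9 genes. Its FPKM was 1.12, 1.18, 1.29 and 1.06 in vehicle and 3.16, 4.85, 5.26 and 3.89 under bleomycin. It was 5.84, 8.65, 4.88 and 7.05 under doxorubicin and 1.65, 1.91, 1.81 and 1.41 under IL-1β. Both drug groups lay wholly above vehicle and IL-1β, and the IL-1β libraries lay above the vehicle libraries without overlap. The mean rose 3.69-fold under bleomycin (log2 difference 1.27, SE 0.14, adjusted p = 2.57e-06, limma) and 5.69-fold under doxorubicin (1.79, SE 0.14, adjusted p = 4.37e-08, limma). The IL-1β mean was 1.46-fold that of vehicle, which was not called (log2 difference 0.32, 95% interval 0.01 to 0.62, adjusted p = 0.0881, limma). It was called with a pseudocount of 0.1 FPKM in place of 1 (adjusted p = 0.0303, limma), which compresses low values less. Doxorubicin exceeded bleomycin by 0.52 on the log2 scale (adjusted p = 0.0305, limma), a call lost in 6 of 16 alternatives, among them leaving out bleomycin replicate 1 or 4 or doxorubicin replicate 2 or 4 (adjusted p = 0.0715 to 0.103).

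Hyal1 stands in a cluster with Hyal2 and Hyal3 on chromosome 9, and its exons overlap those of Naa80, a gene for an actin N-terminal acetyltransferase on the same strand. Naa80 shares 1920 of the 3777 annotated exon bases of Hyal1 (50.8%), and Hyal3 shares 159 (4.21%). How the authors assigned fragments that fit both genes is not given in the sources used here, so the split between Hyal1 and Naa80 is uncertain. Naa80 stood at 3.67 ± 0.939 FPKM in vehicle, 7.02 ± 0.251 under bleomycin, 7.50 ± 0.410 under doxorubicin and 5.53 ± 0.950 under IL-1β (SD, n = 4). It rose in all 3 comparisons, by 0.80 (adjusted p = 6.22e-05), 0.89 (adjusted p = 1.89e-05) and 0.49 (adjusted p = 0.00382) in limma. Naa80 did not differ between bleomycin and doxorubicin past the threshold (-0.08, adjusted p = 0.733, limma). What part shared fragments have in the Hyal1 values was not tested.

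**Figure D2:**
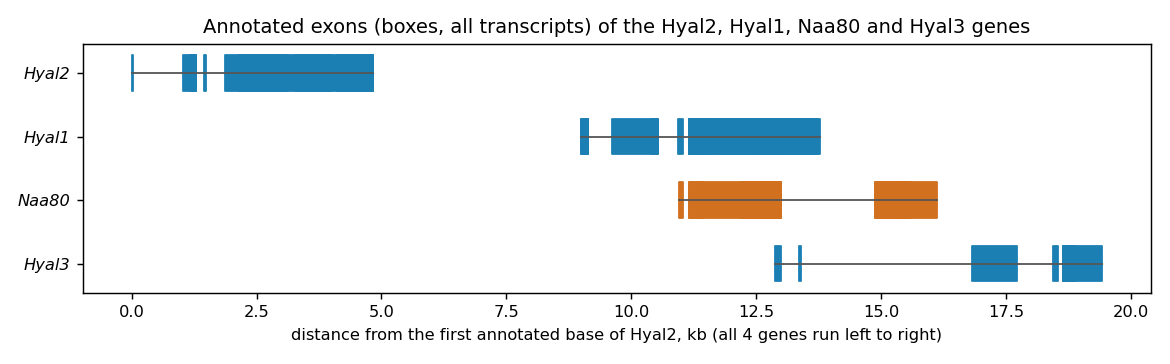
Annotated exons of Hyal2, Hyal1, Naa80 and Hyal3 (boxes, all transcripts together; lines, gene bodies) by distance in kb from the first annotated base of Hyal2. The Hyal1 and Naa80 boxes coincide over 1920 bases, while Hyal2 stands clear of the other 3 genes.

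Hyal2, which encodes a surface-anchored hyaluronidase that starts the cleavage of long chains (ENSMUSG00000010047.12, chromosome 9 from 107567945 to 107572779, plus strand), was the most abundant of the 4 breakdown genes in vehicle. Its FPKM was 6.82, 6.28, 9.88 and 6.89 in vehicle, 13.2, 12.8, 15.6 and 9.61 under bleomycin, 9.20, 8.67, 7.53 and 10.8 under doxorubicin, and 12.01, 6.68, 10.4 and 10.2 under IL-1β. The vehicle library, at 9.88, stood above the lowest bleomycin library, and the groups overlapped in every comparison. The mean rose 1.71-fold under bleomycin, from 7.47 ± 1.63 to 12.8 ± 2.45 (SD, n = 4; log2 difference 0.70, SE 0.17, adjusted p = 0.00291, limma). It was 9.04 ± 1.35 under doxorubicin (0.25, 95% interval -0.11 to 0.62, adjusted p = 0.234, limma) and 9.83 ± 2.25 under IL-1β (0.35, 95% interval -0.01 to 0.71, adjusted p = 0.114, limma). Bleomycin and doxorubicin did not differ past the threshold (0.45, 95% interval 0.09 to 0.81, adjusted p = 0.110, limma), so a bleomycin response apart from that to doxorubicin was not shown. The IL-1β difference was called when vehicle replicate 3 was left out (adjusted p = 0.0347, limma) or IL-1β replicate 2 (adjusted p = 0.0177, limma).

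Hyal3, the third gene of the cluster (ENSMUSG00000036091.8), was scarce. Its FPKM ranged from 0.132 to 0.288 in vehicle, 0.504 to 1.12 under bleomycin, 0.433 to 0.600 under doxorubicin and 0.279 to 0.646 under IL-1β. All libraries of both drug groups lay above all vehicle libraries (p = 0.0286 for each, exact permutation test, two-sided), and the IL-1β libraries overlapped vehicle (p = 0.0571, exact permutation test). The mean was 3.66-fold that of vehicle under bleomycin and 2.35-fold under doxorubicin. With no filter on low values, over 30086 genes, limma gave adjusted p = 0.000898 for bleomycin, 0.0347 for doxorubicin and 0.163 for IL-1β. Hyal3 exons share 159 bases (8.16%) with Hyal1 and 118 bases (6.06%) with Naa80.

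Cemip encodes a protein needed for hyaluronan depolymerisation outside the lysosomal route (ENSMUSG00000052353.13, chromosome 7 from 83932857 to 84086502, minus strand). Its FPKM was 3.12, 3.47, 4.18 and 3.86 in vehicle, 5.98, 6.38, 6.52 and 6.65 under bleomycin, 8.28, 8.32, 9.86 and 11.9 under doxorubicin, and 3.71, 4.30, 3.71 and 4.52 under IL-1β. The doxorubicin libraries lay above all bleomycin libraries, which lay above all vehicle and IL-1β libraries, while vehicle and IL-1β overlapped. Cemip rose 1.75-fold under bleomycin (log2 difference 0.67, SE 0.10, adjusted p = 6.81e-05, limma) and 2.62-fold under doxorubicin (1.18, SE 0.10, adjusted p = 1.38e-07, limma). The IL-1β difference was 0.12 (95% interval -0.10 to 0.34, adjusted p = 0.376, limma). Cemip was 0.51 lower under bleomycin than under doxorubicin on the log2 scale (adjusted p = 0.00491, limma). It was 0.55 higher under bleomycin than under IL-1β (adjusted p = 0.000336, limma) and 1.06 higher under doxorubicin than under IL-1β (adjusted p = 3.24e-07, limma). Cemip levels in each drug group thus differed from those in the IL-1β group. These groups also differed in schedule, and the bleomycin group in the enzyme, so the part of the drug itself cannot be told apart. Cemip2, a related gene for a transmembrane hyaluronidase, was called in none of these 3 comparisons with vehicle (log2 differences -0.08, -0.06 and -0.22).

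**Figure D3:**
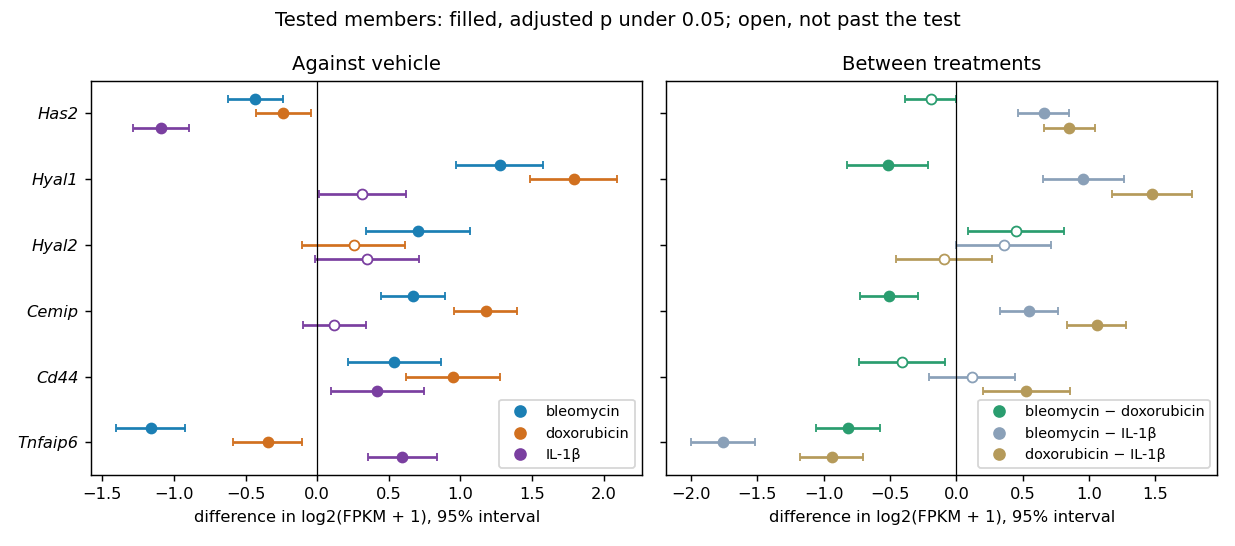
Difference in log2(FPKM + 1) with its 95% interval (horizontal axis) for the 6 tested genes, against vehicle on the left and between treatments on the right. Filled points passed an adjusted p of 0.05 and open points did not. Tnfaip6 falls with both drugs and rises with IL-1β, Has2 is lower in all 3 comparisons with vehicle, and Hyal1 and Cemip are highest with doxorubicin.

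Other hyaluronidases and lysosomal end steps of breakdown were described from a list of 9 symbols, of which 8 are in the files. The 4 tested genes were Cemip2, Gusb, Hexa and Idua, so the counts below are not of end steps alone. Hyal4, Hyal5, Hyal6 and Spam1 did not pass the filter. Under each of bleomycin, doxorubicin and IL-1β 3 of the 4 rose and 0 fell, with medians of 0.40, 0.34 and 0.49, where 27.9%, 25.4% and 24.5% of all tested genes were called higher and their medians were 0.06, 0.02 and 0.03. Hexa, a gene of the lysosomal hexosaminidase that removes N-acetylglucosamine, rose from 61.9 ± 1.15 FPKM in vehicle to 151 ± 5.05 under bleomycin, 137 ± 6.91 under doxorubicin and 116 ± 5.33 under IL-1β (SD, n = 4). Gusb, the gene of the beta-glucuronidase that removes glucuronic acid, rose by 0.44, 0.32 and 0.56 on the log2 scale. Idua, also on the list, rose by 0.37, 0.37 and 0.42. It encodes a lysosomal enzyme of dermatan and heparan sulfate breakdown, and hyaluronan holds no iduronic acid.

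Summed by role, the synthase genes stood at 9.83 ± 1.12 FPKM in vehicle, 7.12 ± 0.317 under bleomycin, 8.12 ± 0.499 under doxorubicin and 4.04 ± 0.626 under IL-1β (SD, n = 4). The 4 breakdown genes Hyal1, Hyal2, Hyal3 and Cemip stood at 12.5 ± 2.02, 24.3 ± 3.25, 25.8 ± 3.25 and 16.02 ± 1.91. The breakdown sum divided by the synthase sum ranged from 1.03 to 1.80 in vehicle, 2.75 to 4.12 under bleomycin, 2.83 to 3.58 under doxorubicin and 3.57 to 4.47 under IL-1β. All 12 treated libraries had a higher ratio than any vehicle library. The synthase sum under IL-1β was 0.411 of vehicle and the breakdown sum 1.28 times vehicle, whereas under doxorubicin the synthase sum was 0.827 of vehicle and the breakdown sum 2.06 times vehicle. Within the breakdown sum, Hyal1 held 9.38% in vehicle, 17.6% under bleomycin, 25.6% under doxorubicin and 10.8% under IL-1β, and Hyal2 held 59.3%, 52.4%, 35.1% and 60.7%. Cemip2 is not in the breakdown sum. It stood at 7.58 ± 1.18, 7.08 ± 0.387, 7.24 ± 1.28 and 6.32 ± 0.204 FPKM in vehicle, bleomycin, doxorubicin and IL-1β (SD, n = 4). A breakdown sum with Cemip2 would rise less in proportion to vehicle. The Hyal1 part also depends on how fragments shared with Naa80 were assigned, which is not known. These sums are of mRNA levels and are no measure of enzyme activity or of hyaluronan.

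**Figure D4:**
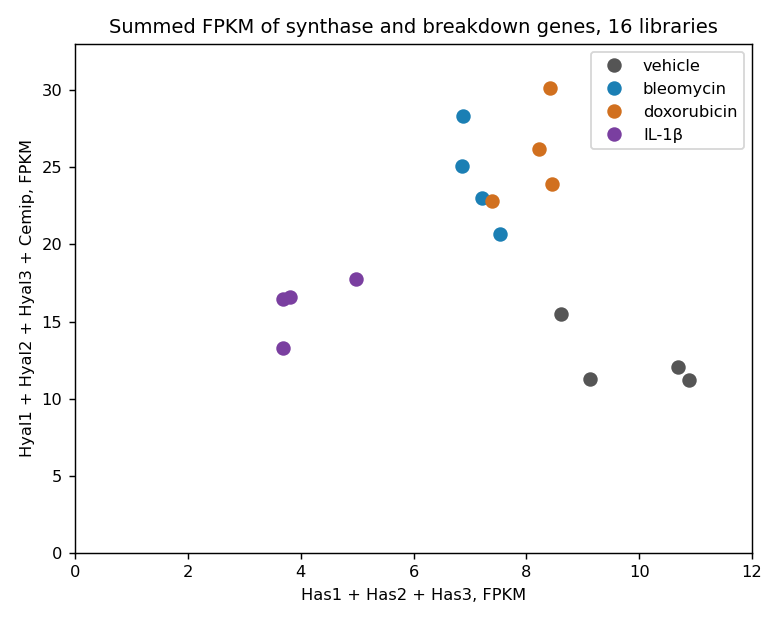
Summed FPKM of the synthase genes (horizontal axis) against that of Hyal1, Hyal2, Hyal3 and Cemip (vertical axis), 1 dot a library. The vehicle libraries sit at the lower right, the bleomycin and doxorubicin libraries higher up, and the IL-1β libraries at the left with a synthase sum of 4.04 ± 0.626.

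Cd44, the gene of the main hyaluronan receptor (ENSMUSG00000005087.17, chromosome 2 from 102811141 to 102901665, minus strand), was the most abundant of the 9, above 87.1% of tested genes in vehicle. Its FPKM was 47.2, 45.0, 34.1 and 39.9 in vehicle, 55.1, 76.3, 54.4 and 58.0 under bleomycin, 88.8, 81.9, 63.1 and 91.2 under doxorubicin, and 61.9, 57.9, 41.1 and 64.4 under IL-1β. Both drug groups lay above all vehicle libraries, and 1 IL-1β library fell among the vehicle values. Cd44 rose 1.47-fold under bleomycin (log2 difference 0.54, SE 0.15, adjusted p = 0.00890), 1.96-fold under doxorubicin (0.95, SE 0.15, adjusted p = 8.95e-05) and 1.36-fold under IL-1β (0.42, SE 0.15, adjusted p = 0.0366), all by limma. The IL-1β call was lost in 8 of 16 alternatives, among them median-of-ratios scaling (adjusted p = 0.0571), quantile normalization (adjusted p = 0.112) and leaving out vehicle replicate 3 or 4 or IL-1β replicate 1, 2 or 4 (adjusted p = 0.0744 to 0.114). Doxorubicin exceeded IL-1β (0.53, adjusted p = 0.00845, limma). Bleomycin did not differ past the threshold from doxorubicin (-0.41, 95% interval -0.74 to -0.08, adjusted p = 0.107) or from IL-1β (0.12, 95% interval -0.21 to 0.44, adjusted p = 0.543). Without doxorubicin replicate 3 the difference between the drugs was called (adjusted p = 0.0458). The table gives 1 value for Cd44, which has 9 annotated transcripts, so splice variants were not resolved.

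Of 9 genes for enzymes that shed CD44, for proteins that link it to actin and for splicing factors, 7 were tested. Of these, 2 rose and 2 fell under bleomycin, 1 rose and 2 fell under doxorubicin, and 2 rose and 3 fell under IL-1β, with medians of 0.03, -0.00 and -0.10. Of all tested genes 46.9%, 48.3% and 43.0% were called, so the counts under bleomycin and doxorubicin are near the background. Mmp14, a membrane metalloproteinase that cleaves CD44, rose from 85.3 ± 0.497 FPKM to 152 ± 2.57 under bleomycin and 150 ± 14.1 under doxorubicin (SD, n = 4). It stood at 94.9 ± 7.52 under IL-1β (log2 difference 0.15, adjusted p = 0.0673, limma). Ezr, which encodes the linker ezrin, fell by 0.19, 0.78 and 0.54 on the log2 scale, and Rdx, which encodes radixin, fell by 0.25, 0.56 and 0.54. Adam10, another sheddase gene, rose under bleomycin (0.25) and Adam17 rose under IL-1β (0.44). Nf2, the gene of merlin, fell under IL-1β by 0.29.

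Tnfaip6 (ENSMUSG00000053475.5, chromosome 2 from 52038009 to 52056686, plus strand), whose upstream sequence with its AP-1 and GAS matches is printed above, was the only one of the 6 tested genes called in opposite directions against vehicle. Its FPKM was 4.47, 4.17, 3.70 and 4.83 in vehicle, 1.52, 1.11, 1.36 and 1.45 under bleomycin, 2.41, 2.75, 4.12 and 3.55 under doxorubicin, and 7.04, 6.92, 6.52 and 7.45 under IL-1β. All bleomycin libraries lay below, and all IL-1β libraries above, the libraries of every other group, while vehicle and doxorubicin overlapped. The mean was 3.15-fold lower than vehicle under bleomycin (log2 difference -1.16, SE 0.11, adjusted p = 5.48e-07, limma). It was 1.34-fold lower under doxorubicin (-0.35, SE 0.11, adjusted p = 0.0185, limma) and rose 1.63-fold under IL-1β (0.60, SE 0.11, adjusted p = 0.000440, limma). The doxorubicin call was lost in a fit of these 2 groups alone (adjusted p = 0.0562) and without vehicle replicate 4 or doxorubicin replicate 1 or 2 (adjusted p = 0.0591 to 0.0718). Bleomycin was lower than doxorubicin by 0.82 (adjusted p = 0.000274) and lower than IL-1β by 1.76 on the log2 scale (adjusted p = 2.32e-09), a 5.13-fold difference of the means. Doxorubicin was lower than IL-1β by 0.94 (adjusted p = 3.17e-06). The estimated number of fragments behind a Tnfaip6 value was 35.3 to 212.

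Of 24 genes for other hyaluronan-binding proteins and their partners, 13 were tested. Among them, 3 were higher and 6 lower under bleomycin, 4 higher and 6 lower under doxorubicin, and 2 higher and 6 lower under IL-1β, with medians of -0.22, -0.16 and -0.13. Of all tested genes 27.9%, 25.4% and 24.5% were called higher and 19.0%, 22.8% and 18.4% lower, with medians of 0.06, 0.02 and 0.03. Acan, the gene of aggrecan, fell from 620 ± 74.4 FPKM in vehicle to 303 ± 29.5 under bleomycin, 312 ± 41.1 under doxorubicin and 148 ± 8.11 under IL-1β. Hapln1, the gene of the link protein that locks aggrecan to hyaluronan, fell from 192 ± 17.4 to 108 ± 17.2, 104 ± 24.8 and 61.3 ± 7.79 (SD, n = 4). For both genes the IL-1β libraries lay below those of both drugs, and the difference was called (adjusted p = 2.78e-07 and 1.67e-07 for Acan, 0.000197 and 0.000440 for Hapln1, against bleomycin and doxorubicin, limma).

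Ptx3, which encodes the pentraxin that TSG-6 brings into hyaluronan networks, fell from 282 ± 50.7 FPKM in vehicle to 80.6 ± 6.37 under bleomycin and 131 ± 21.2 under doxorubicin, and rose to 813 ± 56.3 under IL-1β (SD, n = 4). Its log2 differences were -1.78, -1.10 and 1.54 (adjusted p = 1.09e-08, 1.42e-06 and 2.86e-08, limma), the same signs as those of Tnfaip6 in each comparison. Itih2, a gene for a heavy chain that TSG-6 transfers, went the other way, up by 0.57 and 0.82 with the drugs and down with IL-1β (-0.27, adjusted p = 0.0190, limma). Itih5, of the same family, rose by 0.63 and 0.75 and fell by 0.40. Itih1, Itih3, Itih4 and Ambp, also on the list, reached at most 0.163 FPKM in any library. Layn, which encodes the receptor layilin, rose from 12.3 ± 2.07 to 18.7 ± 1.32 under bleomycin, 18.3 ± 2.42 under doxorubicin and 18.7 ± 1.40 under IL-1β. Vcan, the gene of versican, rose under doxorubicin from 16.8 ± 4.00 to 25.7 ± 3.57 (0.60, adjusted p = 0.00236) and fell under bleomycin to 11.5 ± 1.99 (-0.49, adjusted p = 0.0102). Hmmr, a gene for a hyaluronan-binding protein of the mitotic spindle, fell by 0.60 with bleomycin and by 0.94 with doxorubicin, and C1qbp, a mainly mitochondrial protein, fell by 0.59 and 0.61. Susd5 fell by 0.31 with doxorubicin and by 1.47 with IL-1β. Under IL-1β Bcan, the gene of brevican, fell by 0.55.

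**Figure D5:**
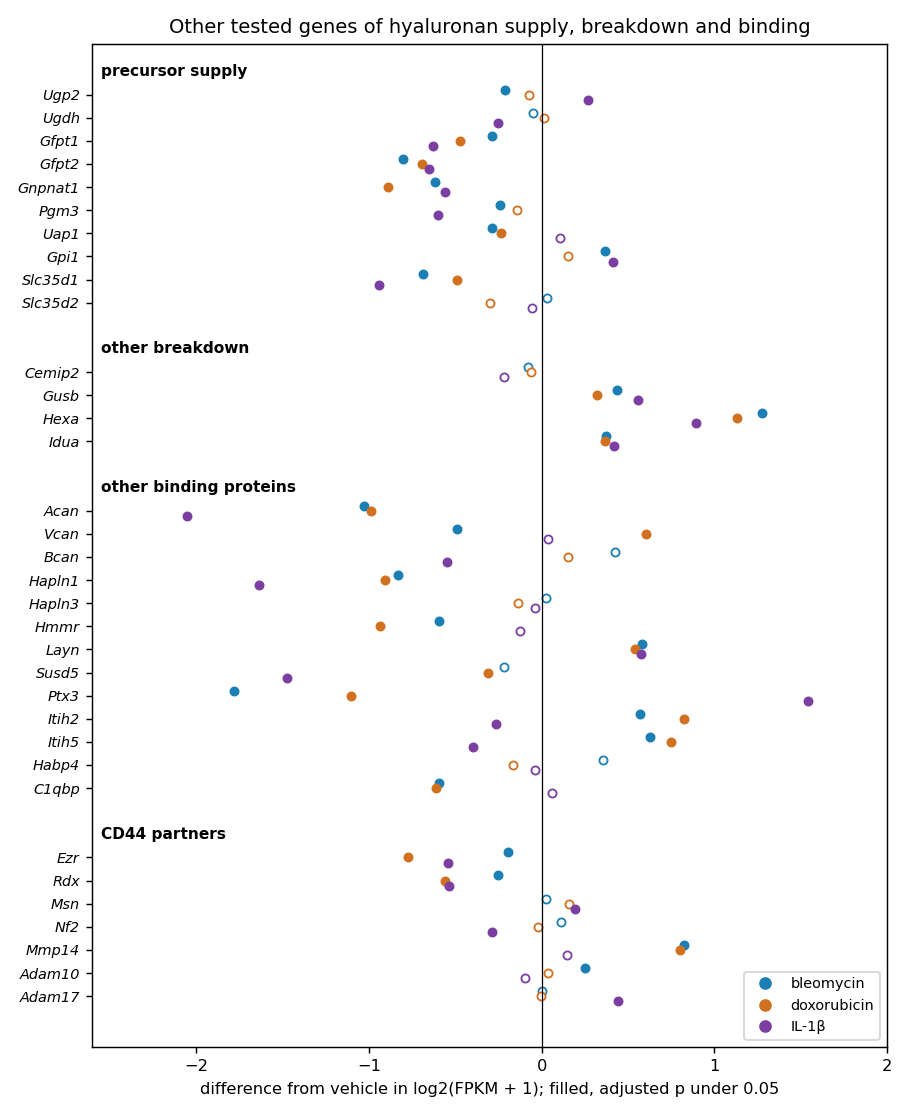
Difference from vehicle in log2(FPKM + 1) (horizontal axis) for the other tested genes of precursor supply, breakdown, hyaluronan binding and CD44 processing, colored by treatment. Filled points passed an adjusted p of 0.05. Hexa, Gusb and Idua lie to the right in all 3 treatments, Acan and Hapln1 to the left, and Ptx3 lies left with the drugs and right with IL-1β.

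Between treatments, the 2 drugs differed in the fewest genes. Of the 6 tested genes, Hyal1, Cemip and Tnfaip6 were lower under bleomycin than under doxorubicin and 0 were higher, 3 of 6 called where 10.0% of tested genes were (5.85% higher and 4.18% lower). The share of all calls that were higher in this comparison moved from 58.3% to 39.7% under median-of-ratios scaling. Bleomycin exceeded IL-1β in Has2, Hyal1 and Cemip and was lower in Tnfaip6, 4 of 6 called where 52.8% were (27.6% higher and 25.2% lower). Doxorubicin exceeded IL-1β in Has2, Hyal1, Cemip and Cd44 and was lower in Tnfaip6, 5 of 6 called where 54.2% were (25.1% higher and 29.2% lower). Hyal1 thus stood 0.96 and 1.48 log2 units higher under bleomycin and doxorubicin than under IL-1β (adjusted p = 3.52e-05 and 2.76e-07, limma).

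Over the 16 libraries, the genes whose centred log2 profile differed least from a member's were found by the root mean square difference. For Has2 these were Creb3l2 (0.15), Slc1a1 (0.15) and Mid2 (0.15), and for Cemip they were Mmp2 (0.14), a gelatinase gene, Tnxb (0.15) and Rgl1 (0.15). Hyal1 was nearest to Ecm1 (0.19), Eef1a2 (0.20) and Pamr1 (0.21). For Tnfaip6 the nearest were Slc39a14 (0.16), a zinc transporter gene, Ctps (0.22) and Postn (0.23), the gene of periostin. Mmp2, for example, stood at 62.8 ± 5.44, 115 ± 9.87, 147 ± 15.4 and 81.9 ± 7.09 FPKM in vehicle, bleomycin, doxorubicin and IL-1β. Slc39a14 stood at 81.0 ± 5.47, 37.3 ± 4.10, 57.3 ± 2.28 and 128 ± 8.30. Hyal2 and Cd44, whose group means spanned under 1 log2 unit, were given no such neighbours.

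Markers of the labelled cell type were high in every library. The summed FPKM of 11 chondrocyte genes ranged from 12350 to 16703 in vehicle, 9278 to 12529 under bleomycin, 9478 to 12551 under doxorubicin and 5455 to 5897 under IL-1β, with 8, 7 and all 11 of them called lower where 19.0%, 22.8% and 18.4% of all tested genes were. Under bleomycin 1 of the 11, Comp, was called higher (mean 934 in vehicle and 1450 under bleomycin). In bulk RNA, fewer cells of a type and less RNA per cell cannot be told apart. Other markers moved too. The 7 synovial fibroblast genes summed to between 51.1 and 78.4 in vehicle, 115 and 151 under bleomycin, 166 and 223 under doxorubicin and 117 and 143 under IL-1β. Of 6 tested, 5, 6 and 4 were called higher than vehicle and 0, 0 and 1 lower under these treatments. Of all tested genes 27.9%, 25.4% and 24.5% were called higher. In vehicle, bleomycin, doxorubicin and IL-1β Prg4 averaged 21.1, 55.6, 97.4 and 38.1 FPKM, and Pdpn 23.8, 42.1, 45.2 and 74.6. Thy1 averaged 14.5, 14.2, 22.4 and 7.51. Prg4 thus had the highest mean of the 7 genes under bleomycin and doxorubicin, while Clic5, also on the list, reached at most 0.273 FPKM. The 6 adipocyte genes summed to between 32.3 and 38.2, 66.7 and 76.9, 142 and 187, and 353 and 392 in the same order, but Fabp4 made up most of each sum (mean 31.3, 58.3, 141 and 367). Adipoq, a defining marker of fat cells, averaged 0.104 FPKM in vehicle, 4.06 under bleomycin, 13.9 under doxorubicin and 0.0429 under IL-1β. The 5 tendon genes summed to between 52.0 and 67.1 in vehicle, 24.8 and 33.6 under bleomycin, 37.5 and 47.5 under doxorubicin and 23.4 and 31.5 under IL-1β. Of 4 tested, 2, 2 and 3 were called lower than vehicle and 0 higher under these treatments. In vehicle, bleomycin, doxorubicin and IL-1β Tnmd averaged 15.9, 2.37, 4.95 and 2.76 FPKM, and Thbs4 28.9, 9.43, 21.8 and 10.1. Scx did not fall with them (mean 12.9, 13.9, 14.1 and 14.0). The 6 osteoclast genes summed to between 75.3 and 83.6, 103 and 113, 122 and 158, and 153 and 178 in the same order. Ctsk made up most of each sum (mean 72.2, 94.2, 120 and 158), and Acp5 averaged 6.89, 14.8, 16.3 and 8.74. Of 2 tested, 2 were called higher than vehicle in each comparison. Ocstamp and Dcstamp stayed under 0.1 FPKM in all 16 libraries, and Calcr and Oscar reached at most 0.410 and 0.309 FPKM. The 6 osteoblast genes summed to between 22.7 and 37.2 over all groups. Of 5 tested, 2 were called higher and 2 lower in each comparison with vehicle, so opposite moves offset each other in the sum. Of all tested genes 46.9%, 48.3% and 43.0% were called. In vehicle, bleomycin, doxorubicin and IL-1β Bglap2 averaged 0.369, 5.23, 5.22 and 11.4 FPKM, and Alpl 10.6, 5.85, 5.62 and 6.88. The 10 macrophage genes summed to between 5.05 and 6.96 in vehicle and 10.7 and 18.2 in the treated groups. Of 3 tested, 2 were called higher than vehicle in each comparison, and 1 was called lower under IL-1β. In vehicle, bleomycin, doxorubicin and IL-1β Cd68 averaged 1.41, 4.52, 3.94 and 7.94 FPKM, and Lyz2 3.33, 6.10, 10.9 and 6.66. Ptprc, Adgre1, C1qb, Itgam and Fcgr1 were under 0.1 FPKM in all 16 libraries. The 7 endothelial genes summed to at most 0.814. Doxorubicin was highest in the synovial fibroblast sum as it was in Hyal1, Cemip and Cd44, and IL-1β was lowest in the chondrocyte sum as it was in Has2. A raised sum does not show that cells of the named type were present. The part of these marker shifts in those results was not tested.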

How the data were processed

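RNA was measured in 16 libraries of mouse articular chondrocytes, prepared with a stranded mRNA kit per the labels' protocols. The deposited tables held FPKM values computed by the authors for 55450 genes a library. Trimmomatic, STAR and build GRCm38 are named, without versions, per the submitters' processing notes. The counting tool, its strand setting and its annotation are not given in the sources used here.

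FPKM values were tested as log2(FPKM + 1), which understates changes of low genes, without further scaling. Genes at or above 1 FPKM in at least 4 of 16 libraries (12976) were fitted by group with limma 3.58.1 (R 4.3.3, mean-variance trend), two-sided. All 6 pairs of groups were compared, with Benjamini-Hochberg adjustment over all tested genes of a pair. The procedure was tested on simulated data. Genes below the filter were compared by two-sided exact permutation tests of FPKM (scipy 1.17.1). Depth was estimated from the steps between low FPKM values of single-transcript genes, of which 57.5% to 63.1% came out whole within 0.1 fragments, so counts were not recovered and no count test was run. Replicates shared at most 0.00809% of equal values. Gene positions came from GENCODE M21 (54312 identifiers of the same version) and upstream sequences from RefSeq.

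The members and gene lists were chosen with earlier results of these data known. Named genes are all members and, of each list, up to 4 called genes with the largest differences from vehicle. Ugdh, Ugp2, Cemip2, Itih1, Itih2, Itih3, Itih4, Ambp, Layn, Vcan, C1qbp and Bcan were picked after their values were seen. So were the markers Comp, Fabp4, Adipoq, Ctsk, Prg4, Pdpn, Thy1, Tnmd, Thbs4, Scx, Bglap2 and Alpl. The markers Clic5, Acp5, Calcr, Oscar, Cd68 and Lyz2 were also picked in this way. A listed gene is not reported here and was left out of its list's counts. Alternatives were median-of-ratios scaling, quantile normalization, pseudocounts of 0.1 and 0.01 FPKM, no filter, a filter of 5 FPKM, only the 2 groups compared, a replicate block and leaving out each library.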

Additional observations from a re-analysis of the deposited data

Results flagged for a closer look

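In 3 of 36 groups of 4 libraries (9 genes in 4 groups), 1 library stood apart from the other 3 by Dixon's criterion, which chance meets in about 1 of 20 groups. Has2 was 4.75 FPKM in IL-1β replicate 1 against 3.47 to 3.60 in the other IL-1β libraries. Hyal2 was 9.88 in vehicle replicate 3 against 6.28 to 6.89 in the other vehicle libraries. Cd44 was 76.3 in bleomycin replicate 2 against 54.4 to 58.0 in the other bleomycin libraries. Each was the highest of its group, and the bleomycin calls of Hyal2 and Cd44 held without these libraries.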

How the results depend on the processing

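Across 16 alternatives each, the 6 calls of bleomycin against vehicle held, with an adjusted p of at most 0.0347 (Cd44, limma). The count of 5 genes called for doxorubicin against vehicle fell to 3 when only these 2 groups were fitted, and ranged from 3 to 5 when 1 library was left out. It was 3 without vehicle replicate 4, doxorubicin replicate 1 or doxorubicin replicate 2. Has2 and Tnfaip6 were the genes concerned. Doxorubicin against bleomycin for Hyal1 and IL-1β against vehicle for Cd44 also lost their calls under some alternatives, and IL-1β against vehicle gained Hyal1 or Hyal2. The cause was not tested. Signs turned in 3 differences that were not called: Cd44 under bleomycin against IL-1β ranged from -0.0236 (without IL-1β replicate 3) to 0.188 with 1 library left out, Hyal2 under doxorubicin against IL-1β from -0.250 to 0.00357 (without IL-1β replicate 1), and the Has3 difference of doxorubicin and vehicle was -0.000912 FPKM under median-of-ratios scaling. Of the differences of single genes with 1 library left out, 264 kept direction and side of the threshold, 17 lost and 5 gained a call and 2 turned sign, and under the other settings these numbers were 293, 8, 4 and 1.

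The labels do not say that replicate numbers pair libraries. Same-numbered libraries had r of -0.02 to 0.21 between deviations from group means (6 of 24 pairs over 0.1), others at most 0.10, and 11 of 16 libraries correlated best with their own number, a hint from the data and not the design. With a replicate block, members called stayed at 6, 5, 3, 4 and 5 and rose from 3 to 4 for bleomycin against doxorubicin, where Cd44 was added (adjusted p = 0.0206, limma). Replicate 3 was the lowest for Cd44 in all 4 groups, and with the block its SE was 0.10 against 0.15 and its IL-1β call held at an adjusted p of 0.00428 (limma). Genes called rose from 1301 to 1488 for bleomycin against doxorubicin. Leaving out 1 library was not run for the exact tests of Has1, Has3 and Hyal3. Depth limits Has1, Has3 and Hyal3, whose values rest on few fragments.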
